A study of Williopsis jadinii with 8 samples.

Results

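A group of 165 transcripts of the yeast Candida utilis (listed as Williopsis jadinii) gave at least 4-fold more signal on xylose than on glucose in the wild type and a similar signal in the recombinant strain TMS174 on xylose. The members were chosen by measured values of these same arrays, from 8604 design identifiers (design IDs, the names the array gives to its transcripts). The rule asked for a signal well above background on all 8 arrays, a wild-type log2 difference between xylose and glucose of at least 2, and a TMS174 signal above 0.5 and below 1.5 times the wild-type signal on xylose. Of the 8604 design IDs, 7210 were well above background on all arrays, and 229 of these met the minimum difference in the wild type. TMS174 was at least 2-fold below the wild type for 58 of the 229 and at least 1.5-fold above it for 6, which left the 165 members.

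RNA was hybridised to one-colour Agilent arrays in 3 groups. The wild type, strain NBRC0988 (WT), was grown on glucose and sampled at 10.5 h (n = 3) or on xylose and sampled at 24 h (n = 3), and TMS174, which the labels call a strain that ferments xylose, was grown on xylose and sampled at 24 h (n = 2). The labels give no genotype for TMS174, so the genes it carries are not named here, and nothing says whether it is 1 clone. All cultures were 50 ml of rich medium (yeast extract at 10 g/L, peptone at 20 g/L), started at an OD600 of 0.1 and stirred gently at 30 °C with limited air, after 3 days of preculture on glucose. The xylose medium held 50 g/L of the sugar, and the labels state 20 g/L for the glucose medium. Its name in the labels (YPD5) parallels that of the xylose medium (YPX5), so the stated glucose concentration is uncertain. The medium and the sampling time changed together between the WT groups. TMS174 has no group on glucose, so its own response to the sugar was not measured. Wherever a rise is said to be kept, damped or carried further in TMS174, WT glucose is the baseline. The WT arrays lay on 1 slide and the TMS174 arrays on another, and the effects of strain and of slide therefore cannot be told apart.

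Xylose is a pentose that many yeasts take up and reduce to xylitol, which is oxidised to xylulose, phosphorylated and passed into the pentose phosphate pathway. Where glucose is plentiful, yeasts commonly keep genes for the use of other carbon sources at a low level, a response known as glucose repression. Strains engineered to ferment xylose usually carry extra genes of the first steps of xylose use. RefSeq's annotation of assembly Cybja1 lists 6184 genes, and none of the 8604 design IDs was found among their tags, symbols or synonyms. The members are therefore described by design ID, by their signals and by their numbers, with no gene name or function, and the files used here hold no probe sequence.

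Signals are given as log2 of the processed intensity relative to the 75th percentile of the yeast probes on the same array, averaged over the probes of a design ID, so that 0 is the 75th percentile itself. Replicate arrays agreed closely, with Pearson's r across design IDs of 0.9903 to 0.9967 within the groups. No yeast probe was saturated. The precision is limited by the number of arrays: the median standard error of a member's log2 difference was 0.168 between the WT groups and 0.187 between the strains. Signals of different design IDs come from different probes, so they are not set against each other as amounts of RNA.

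The members were not a uniform block. Their mean signal on WT glucose ranged from -9.00 to 1.95 around a median of -3.47. On WT xylose it ranged from -6.11 to 4.15 with a median of -0.90, and in TMS174 from -7.00 to 4.11 with a median of -0.96. Array by array, the median over the members was -3.38, -3.14 and -3.65 on WT glucose, -0.86, -0.87 and -0.93 on WT xylose, and -0.99 and -0.93 in TMS174. The rule limited the difference between the strains and required the distance from glucose, so the nearness of the xylose arrays of both strains follows from it. Among themselves, the glucose arrays were farther apart than the xylose arrays.

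**Figure D1:**
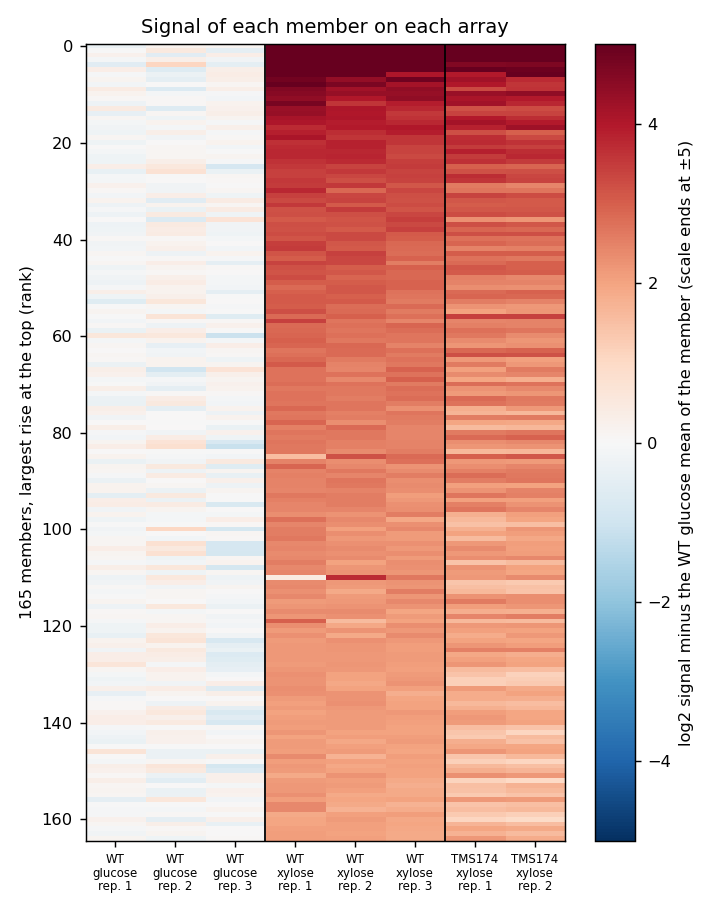
Each row is 1 of the 165 members, ordered by the size of its rise from the largest at the top, and each column is 1 array; the colour is the log2 signal minus the member's WT glucose mean. The WT xylose and TMS174 columns are raised in nearly every row, and the pale cell near row 110 is WT xylose replicate 1 for cut01g0030613.

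The difference between WT xylose and WT glucose had a median of 2.55 over the members, or 5.87-fold, against 0.02 over the 7964 design IDs tested. Most members stood near the lower limit: 116 differed by 4 to 8-fold, 49 by at least 8-fold, 14 by at least 16-fold and 7 by at least 32-fold. These sizes are set by the rule and are given as a description. All 165 were called higher on WT xylose in the fit over all design IDs (limma, adjusted p under 0.05), where 34.9% of the tested design IDs were called higher. The 3 xylose arrays all lay above the 3 glucose arrays for 164 members, a pattern found for 36.7% of the tested design IDs. The rule used this contrast, so nothing is read from either count.

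The largest rise belonged to cut01g0011090. Its signal was -4.38, -3.94 and -3.97 on WT glucose, 2.92, 2.54 and 2.68 on WT xylose, and 2.38 and 2.66 in TMS174. It thus went from far below the 75th percentile to well above it, and the TMS174 values overlapped those of the WT on xylose. The WT difference was 6.81 (SE 0.16), or 112-fold, and its 2 probes gave 6.89 and 6.73.

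The next largest belonged to cut01g0030824, at -7.54, -7.05 and -7.98 on WT glucose, -1.58, -1.79 and -1.52 on WT xylose, and -1.91 and -2.29 in TMS174. Both TMS174 arrays lay below all WT xylose arrays, by a mean of 0.47 (SE 0.26), while staying 42.8-fold above WT glucose. The WT rise was 59.4-fold. On glucose this transcript was dim, and normexp background correction, which adds an offset to every spot, lowered its WT difference from 5.89 to 3.63, whereas that of cut01g0011090 went from 6.81 to 6.36.

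The other 5 members with a rise of at least 32-fold were cut01g0030678 (57.9-fold), cut01g0030744 (43.8-fold), cut01g0050464 (43.6-fold), cut01g0050548 (41.3-fold) and cut01g0070003 (38.2-fold), named after their values were seen. They differed in how closely the replicates matched. For cut01g0030744 the signals were -3.55, -3.19 and -3.66 on WT glucose, 2.21, 1.84 and 1.89 on WT xylose and 1.88 and 2.20 in TMS174, so that both xylose groups covered the same narrow range. For cut01g0070003, measured by 1 probe, the xylose values were spread over more than 2 log2 units, at 0.09, -1.09 and -2.30 in WT and -2.39 and -0.97 in TMS174, all above the glucose values of -6.42, -6.65 and -5.98. Its difference between the strains of -0.58 had a standard error of 0.70.

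Between the strains, the median difference of the members was -0.27, which is 1.21-fold lower in TMS174, against -0.04 over all tested design IDs. TMS174 was within 1.1-fold of the WT on xylose for 46 members, within 1.25-fold for 85 and within 1.5-fold for 127. The share within 1.25-fold was 51.5% of the members, below the 70.2% of all design IDs measured on the 8 arrays, and both are given as a description. A further 38 were 1.5 to 2-fold lower. The TMS174 mean was below the WT xylose mean for 132 members and above it for 33, so 80.0% were lower, compared with 52.0% of the design IDs measured on all arrays. Nothing is read from this tilt, because the rule limited this difference and the WT xylose arrays enter both differences. The window is wider on the lower side. Of the 229 with the minimum rise, the window cut 58 as too low and 6 as too high. The cause of the tilt was not tested.

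**Figure D2:**
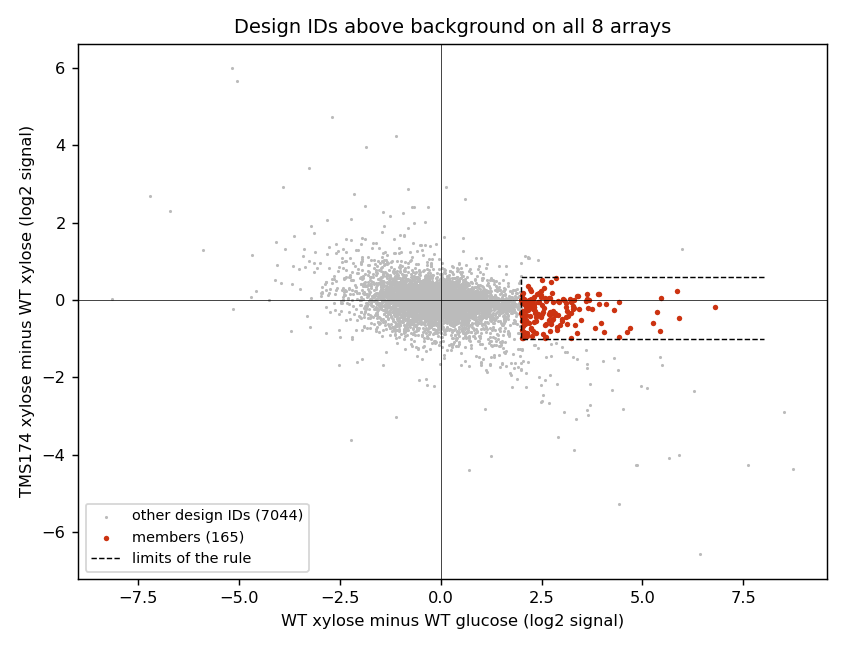
Each point is a design ID well above background on all 8 arrays, by its WT difference between xylose and glucose (horizontal) and its difference between TMS174 and WT on xylose (vertical), both in log2 units. The 165 members fill the dashed window of the rule, more densely below the zero line than above it and more densely near the left limit.

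In the fit over all design IDs, 30 members were called lower in TMS174 (limma, adjusted p under 0.05), beside 10.4% of the tested design IDs. A single member was called higher, beside 7.35%. Both TMS174 arrays lay below all WT xylose arrays for 86 members and above them for 8, and the arrays overlapped for the other 71. Among all tested design IDs the first pattern held for 33.7% and the second for 26.2%. The rule limited this difference too, so these counts describe the members only. The number of calls over all design IDs depended on the arrays used and was 1417 with all of them. Dropping WT xylose replicate 1, 2 or 3 gave 633, 1220 and 589. Dropping WT glucose replicate 1, 2 or 3 gave 1169, 2064 and 1350. Dropping a TMS174 array leaves a single array of that strain, so those counts are not given.

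The single member called higher was cut01g0001042, named after its values were seen. It stood at -7.13, -7.41 and -7.19 on WT glucose, -4.49, -4.40 and -4.64 on WT xylose and -4.01 and -4.08 in TMS174. The TMS174 arrays lay above all others, by 0.47 (SE 0.11) over the WT on xylose. The 2 members with the highest TMS174 values relative to WT xylose were cut01g0030444 and cut01g0001082, and neither was called. The first was 0.56 (SE 0.32) higher in TMS174, at -0.34 and -0.36 against -0.95, -0.76 and -1.001 in WT on xylose, after -3.78, -3.14 and -4.38 on glucose. The second was 0.52 (SE 0.43) higher, and its WT xylose arrays were far apart, at -4.72, -3.11 and -3.45, so that the TMS174 values of -3.30 and -3.18 overlapped them. Its glucose values were -6.10, -6.33 and -6.42.

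At the other end, TMS174 kept the least of the rise in cut01g0040664 and cut01g0010186, both called lower. The signal of cut01g0040664 was -5.97, -6.79 and -6.01 on WT glucose, -4.13, -4.16 and -4.35 on WT xylose and -5.16 and -5.26 in TMS174. The TMS174 arrays therefore sat about midway, 0.997 (SE 0.24) below the WT on xylose and 2.06-fold above WT glucose. The signal of cut01g0010186 was 1.21, 0.57 and 1.25 on WT glucose, 2.97, 3.16 and 2.94 on WT xylose and 2.09 and 1.96 in TMS174. It was likewise 0.996 (SE 0.21) below the WT on xylose, with no overlap between any of the groups.

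TMS174 was not sampled on glucose, so WT glucose stands in as its baseline. The share of the rise that TMS174 kept was expressed as its difference from WT glucose in percent of the WT difference, on the log2 scale. Its median over the members was 90.6%, with quartiles of 79.8% and 98.8% and a range from 50.5% to 121%. It was between 90% and 110% for 76 members, under 75% for 27 and over 100% for 33. The 14 members that rose by at least 16-fold kept 78.2% to 104% (median 93.0%), and the 35 that rose by 8 to 16-fold kept 69.5% to 105% (median 94.5%). The 116 below 8-fold had medians of 87.6% and 87.3% in the lower and upper part of that range, divided at a log2 difference of 2.5. The limit of 2-fold below WT allows a smaller share for a small rise than for a large one, so the lower ends of these ranges follow from the rule.

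Compared directly with WT glucose, TMS174 was higher by a median of 2.33, or 5.03-fold, with 118 members at least 4-fold higher and 47 between 2 and 4-fold. For the 58 design IDs with the same minimum rise that TMS174 damped by at least 2-fold, the WT rise had a median of 9.79-fold and the share kept a median of 37.6%, and 7 of them had a TMS174 mean below WT glucose. The WT xylose replicates were also farther apart there, with a median SD of 0.41 against 0.14 for the members. The 6 design IDs that rose further in TMS174 had a median WT rise of 4.49-fold and lay 1.03 to 1.32 above the WT on xylose. These sets were divided by the same values, so their differences are given as a description.

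Some of the values that define the members lay close to the limits. The smallest WT differences inside were 2.001, 2.003 and 2.006, and the largest outside were 1.996, 1.993 and 1.987. There were 24 members within 0.1 above that limit and 22 design IDs within 0.1 below it that met the other conditions. For the lower limit of TMS174 against WT, the values just inside were -0.997, -0.996 and -0.988, and those just outside were -1.113, -1.128 and -1.156. At the upper limit, the values inside were 0.56, 0.52 and 0.47 and those outside began at 1.03. The member nearest to that limit, cut01g0030444, passed it under quantile normalization, median scaling and normexp and when WT xylose replicate 2 was dropped, with differences of 0.586, 0.621, 0.627 and 0.628.

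In a reading added after the values had been seen, members were chosen anew without 1 array and then read on the array left out. The choice did not use that array, but the group mean it is set against entered both steps. For the WT xylose arrays left out in turn, 152, 160 and 168 design IDs were chosen. On the array left out, 144, 140 and 141 of them were at least 4-fold above the WT glucose mean, or 94.7%, 87.5% and 83.9%. For the WT glucose arrays, 136 of 169 (80.5%), 117 of 182 (64.3%) and 129 of 150 (86.0%) lay at least 4-fold below the WT xylose mean. WT glucose replicate 2 was thus the array on which fewest kept the full size, and it also had the highest median over the members. For the TMS174 arrays, 155 of 158 (98.1%) and 155 of 163 (95.1%) stayed inside the limits. Most design IDs differ little between the strains: by the group means, 70.2% of those measured on the 8 arrays were within 1.25-fold. The share of all design IDs inside the limits on a left-out array was not counted, so these percentages describe the members only. All the design IDs chosen had the sign of the rise on each WT array left out. The choice left little room for another sign, so nothing is read from this.

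The 2 probes of a design ID gave a further view of the same RNA. Of the members, 146 had 2 probes and 19 had 1. Both probes passed the 4-fold minimum for 132 of the 146, and the lower of the 2 was never below 1.65 on the log2 scale. The WT differences of the 2 probes were 0.11 apart at the median and less than 0.5 apart for 135 members. The widest gap was 1.11, in cut01g0070248, whose probes gave 2.20 and 3.31. Differences between the strains were inside the limits on both probes for 140 of the 146. The rule used the mean of these same probes, so the counts against its limits are partly fixed by the choice. Agreement of probes was not counted over all design IDs, and these values describe the members only.

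The size of the rise depended on the background correction for the members that were dim on glucose. The alternative, normexp, starts from median spot signals and adds an offset of 50, which by construction shrinks the differences of dim spots and seldom turns their sign. The 41 members under -6 on WT glucose had processed intensities of 6.15 to 45.9 there, and their median WT difference fell from 2.73 to 1.16 under normexp, with 8 of the 41 still at 4-fold or more. The 72 members at -3 or above had intensities of 387 to 11799 on glucose, their median went from 2.43 to 2.35, and 62 of them stayed at 4-fold or more. The 52 between had medians of 2.58 and 2.01. All 165 stayed higher on xylose, by at least 0.36, and 150 by at least 2-fold. The members with the lowest glucose signal were cut01g0001263 and cut01g0030565. The first was at -8.90, -8.66 and -9.43 on WT glucose, -5.60, -5.66 and -6.44 on WT xylose and -6.17 and -5.99 in TMS174, and its WT difference of 3.095 (SE 0.28) became 0.66 under normexp. The second went from -8.83, -8.20 and -8.52 to -5.65, -5.84 and -5.71 in WT and was at -5.76 and -5.83 in TMS174. Its difference of 2.78 (SE 0.16) became 0.56.

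**Figure D3:**
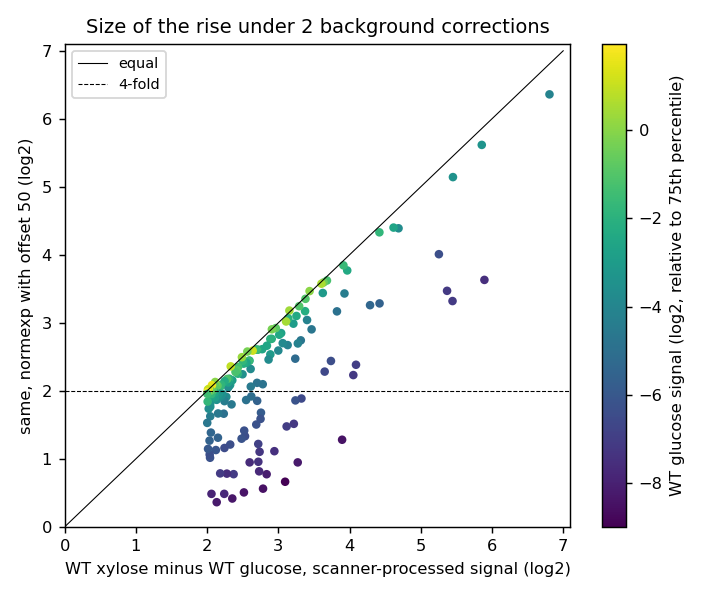
Each point is a member, by its WT difference between xylose and glucose from the scanner's processed signal (horizontal) and from median signals after normexp correction with an offset of 50 (vertical), both log2; colour gives the WT glucose signal. Bright members lie along the line of equality. Dark points, which are dim on glucose, fall below it, and most of them lie below the dashed 4-fold line too.

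At the bright end, cut01g0070247 and cut01g0020849 had the highest signals of the members on WT xylose. The signal of cut01g0070247 was 0.32, 0.83 and 0.48 on WT glucose, 4.17, 4.28 and 3.997 on WT xylose and 4.20 and 4.02 in TMS174. The xylose groups overlapped, with a difference of -0.04 (SE 0.16), and the WT rise was 12.2-fold. The signal of cut01g0020849 was 1.90, 1.999 and 1.96 on WT glucose, 3.99, 3.99 and 3.91 on WT xylose and 3.92 and 3.83 in TMS174. It was high in every group and its replicates were the tightest of the members named here on glucose, with an SD of 0.05 (n = 3). Its rise of 2.01 (SE 0.07) was close to the minimum, and its probes gave 1.82 and 2.19. The other member with a high glucose signal, cut01g0300002, went from 1.29, 1.77 and 1.55 to 3.55, 3.62 and 3.64 in WT, and stood between them in TMS174 at 2.86 and 3.13. It was called lower there, by 0.61 (SE 0.15), and its probes differed in their WT rise, at 1.65 and 2.49.

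**Figure D4:**
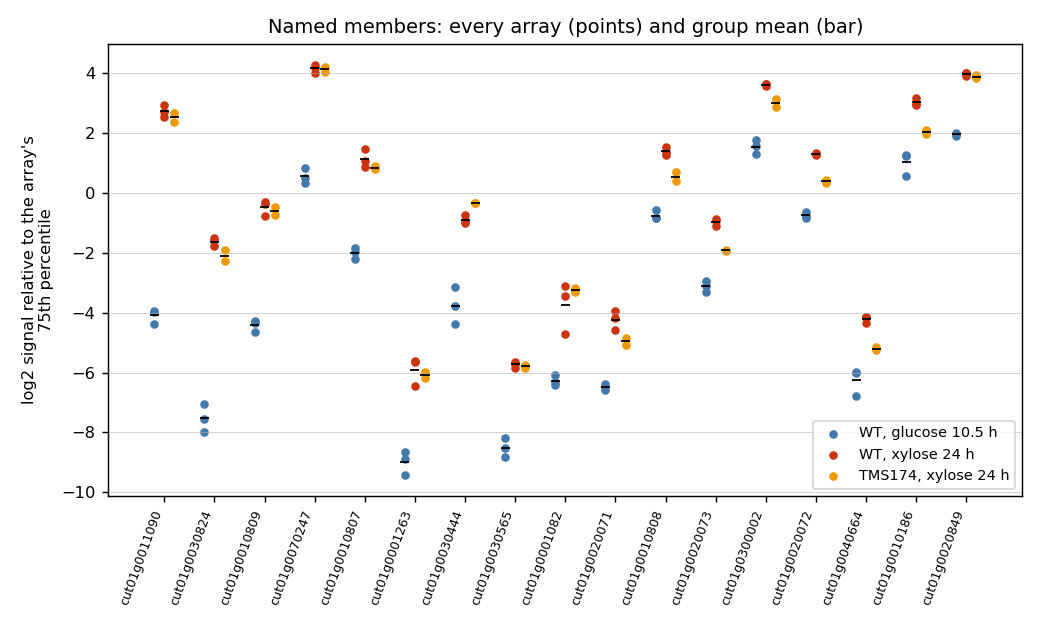
Points are the arrays of each group and bars the group means, for the 17 members named by fixed rule, ordered from the largest WT rise (left) to the smallest; the vertical axis is the log2 signal relative to the array's 75th percentile. The glucose points lie below both xylose groups in every column, and the distance between the WT xylose and TMS174 points varies between members.

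Replicate spread was wider on glucose than on xylose. The median SD of a member was 0.26 on WT glucose, 0.14 on WT xylose (n = 3 each) and 0.07 in TMS174 (n = 2), against 0.14, 0.10 and 0.07 for the design IDs measured on all arrays. An SD over 0.5 was found for 34 members on WT glucose, for 7 on WT xylose and for 1 in TMS174. One of them, cut01g0030613, singled out after its values were seen, was the only member whose WT groups overlapped. WT xylose replicate 1 stood at -7.12 and the other xylose replicates at -3.83 and -4.93, beside -7.82, -7.05 and -7.84 on glucose and -5.40 and -5.19 in TMS174. Its WT difference of 2.28 had a standard error of 0.76 and rests on WT xylose replicates 2 and 3.

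The design IDs end in a number of 7 digits, here read as a group (first 3) and a place in it (last 4). The files used here do not say whether neighbouring numbers are neighbouring genes, pieces of 1 gene or copies. The rule did not use these numbers. Of the 165 members, 46 (27.9%) carried a number directly next to that of another member, in 22 runs, whereas 3.51% of all design IDs measured on the 8 arrays were next to a member. The 207 other design IDs directly next to a member are by definition those that failed the rule. Whether neighbours share a rise is therefore not read from them. Their median WT difference was -0.04, and 11.1% of them were at least 2-fold higher on xylose. The 6065 design IDs more than 5 numbers from any member, also non-members, gave -0.04 and 9.53%.

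The neighbouring members resembled each other in values the rule had not used. Each array's deviation from its group mean was taken for every member, and these deviations were correlated over the 8 arrays. In the 24 pairs of neighbouring members Pearson's r had a median of 0.72 (range -0.40 to 0.995), with 18 of the 24 over 0.5. In the 13506 other pairs of members the median was 0.10, with 25.5% over 0.5. Neighbouring design IDs that were not members had a median of 0.14 over 5810 pairs, with 29.1% over 0.5, and those 10 numbers apart had a median of 0.00, with 19.6% over 0.5. All pairs share the same arrays and their depth of signal, and pairs share members. Of the 46 members in runs, 12 had only 1 probe, compared with 7 of the other 119, and 10 of the 24 pairs included such a design ID.

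The pair cut01g0030802 and cut01g0030803, chosen after its values were seen, had the highest r of 0.995. The first was at -2.63, -1.94 and -2.61 on WT glucose, 0.81, 0.81 and 0.96 on WT xylose and 0.87 and 0.78 in TMS174. The second was at -5.47, -4.74 and -5.38, then -1.99, -2.01 and -1.88, and then -1.97 and -2.08. Both were highest on WT glucose in replicate 2, and their WT differences were 3.25 (SE 0.18) and 3.24 (SE 0.18). The lowest r, -0.40, belonged to cut01g0070247 and cut01g0070248, whose WT rises were 12.2-fold and 6.75-fold. In 14 of the 24 pairs the WT differences and the strain differences both lay within 0.2 of each other, and in 9 pairs the WT differences were more than 0.5 apart.

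The longest runs held 3 members each. In the run from cut01g0020071 to cut01g0020073, all 3 fell short of the WT level in TMS174. The signal of cut01g0020071 was -6.60, -6.38 and -6.48 on WT glucose, -4.19, -4.59 and -3.94 on WT xylose and -4.85 and -5.07 in TMS174. That of cut01g0020072 was -0.84, -0.66 and -0.76, then 1.34, 1.29 and 1.26, and then 0.43 and 0.34. That of cut01g0020073 was -3.33, -2.93 and -3.10, then -0.88, -1.12 and -0.93, and then -1.93 and -1.90. In each the TMS174 arrays lay between the WT groups with no overlap, and the strain differences were -0.72 (SE 0.19), -0.91 (SE 0.08) and -0.94 (SE 0.13), all called lower. The shares of the rise kept were 68.0%, 55.4% and 56.3%.

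The run from cut01g0010807 to cut01g0010809 was less uniform. The signal of cut01g0010807 was -2.21, -1.84 and -1.99 on WT glucose, 1.45, 1.07 and 0.85 on WT xylose and 0.88 and 0.78 in TMS174. That of cut01g0010808 was -0.86, -0.58 and -0.84, then 1.53, 1.26 and 1.36, and then 0.68 and 0.38. That of cut01g0010809 was -4.34, -4.64 and -4.28, then -0.31, -0.37 and -0.79, and then -0.46 and -0.73. The WT rises were 8.81-fold, 4.42-fold and 15.2-fold. The middle one alone was called lower in TMS174, by 0.85 (SE 0.14), while the outer ones overlapped the WT on xylose and kept 90.6% and 97.4% of the rise against its 60.3%. Whether the strain differences themselves differ within the run was not tested.

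**Figure D5:**
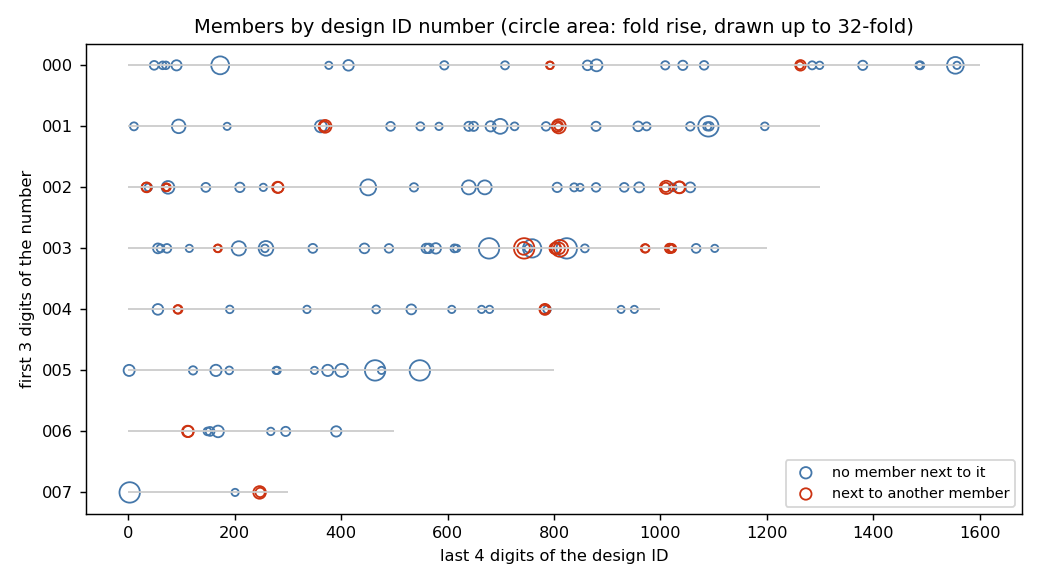
Circles are members in the 8 largest number groups, placed by the last 4 digits of the design ID (horizontal) and the first 3 digits of its number (vertical); circle area is the fold rise in WT, drawn up to 32-fold, and red marks members next to another member. Members occur along all 8 groups, and several large circles lie close together in group 003.

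Members were found in all 8 large number groups. Their share among the design IDs measured on all arrays was between 1.70% and 2.49% in 7 of these groups and 3.54% in group 003 (36 of 1018), against 2.29% over the whole array. Of the 14 members with a rise of at least 16-fold, 6 were in group 003, between cut01g0030259 and cut01g0030824. These counts were compared after the values had been seen and were not tested.

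The scaling of the arrays set how far the rise appeared to be kept. Scaling to 6 spike-in probes, whose RNA is added in the labelling, in place of the 75th percentile moved the median over all design IDs from 0.018 to 0.425 between the WT groups and from -0.04 to -0.594 between the strains. The members moved with it, to medians of 2.96 and -0.83, and in 164 of the 165 the TMS174 mean was then the lower one. Their median share of the rise kept went from 90.6% to 73.0%. Relative to the median of all design IDs the members stood at 2.54 and -0.23 under either scaling. This holds by construction, because each scaling shifts all design IDs of an array by the same number. The labels do not say whether each sample received an equal amount of spike-in RNA. Under both scalings, as under median, quantile and normexp processing, the TMS174 mean of all 165 members was above WT glucose. The rule fixed this outcome for the 75th percentile and left little room for another under the alternatives, so nothing is read from it.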

How the data were processed

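Intensity values came from the 8 deposited scanner files, which per the file headers the authors made with the scanner software (Agilent Feature Extraction, version 9.5.3.1): processed (background-subtracted) signals, median spot and background signals, and 0 or 1 flags. The ratio values of the authors' deposited table equal the processed signal divided by 1 number per array, close to the 75th percentile; the labels do not say how that number was chosen. RNA (500 ng) was labelled with Cy3, per the labels.

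Signals of the 15208 yeast probes were divided by each array's 75th percentile and put on the log2 scale, with the deposited intensity as the start. Outlier-marked spots (0 to 10 per array) were left out, which changed no member, and probes of a design ID were averaged. Testing covered design IDs for which 2 or more arrays had a probe well above background (7964; 6 more lacked a value), with limma 3.58.1 in R 4.3.3: lmFit on group means over 8 arrays with 5 residual degrees of freedom, eBayes, Benjamini-Hochberg at 0.05, two-sided. The fit was checked on simulated arrays.

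The members, lists and alternatives were chosen with earlier results of these data known. The named members are the 2 with the largest WT rise, the highest WT xylose signal, the highest and the lowest strain difference, and the lowest and highest WT glucose signal, and those in the longest runs of numbers (17 in all); others are named as chosen after their values were seen. The design text calls the replicates independent experiments; p-values measure the spread between them.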

Additional observations from a re-analysis of the deposited data

How the results depend on the processing

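The rule gave 139 to 182 design IDs under quantile or median scaling, the deposited ratios, either probe alone or 1 array left out, and 225 under spike-in scaling (109 shared with the 165). It gave 96 under normexp, 300 with a 3-fold minimum and 49 with an 8-fold minimum. The members' median WT difference was 2.47 under median scaling, 2.96 under spike-in scaling and 2.09 under normexp, and 2.52 to 2.61 without single arrays. Their median strain difference was -0.23, -0.21, -0.83 and -0.20 under quantile, median, spike-in and normexp processing, and -0.30 to -0.20 without single arrays. Over all design IDs, 9598 single probes in place of 5490 design IDs were called between the WT groups (more probes were tested), and 4981 to 5673 design IDs without single arrays. Between the strains 1417 were called, with 4452 under spike-in scaling, 2757 with array weights and 327 to 2064 without single arrays; the cause was not tested. The share called higher there was 41.3%, and 57.7% under quantile normalization, 53.1% under median scaling, 57.0% under normexp and 1.8% under spike-in scaling; between the WT groups it was 50.6%, and 76.6% under spike-in and 38.0% under normexp. With the replicate number as a block, 759 were called between the strains and 5370 between the WT groups. Deviations of same-numbered arrays correlated at -0.15 to 0.17 and those of differently numbered arrays at -0.21 to 0.15. Between the WT groups the same-numbered values were 0.02, 0.17 and 0.07, and the others were -0.21 to 0.13. These values do not settle whether the numbers pair the samples. Of 442 values of named members under the alternatives, 42 moved by more than their replicate spread, 28 of them under spike-in scaling. No called value changed sign, but the rule and the calls left little room for that, so nothing is read from it.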
